A study of Saccharomyces cerevisiae with 20 samples.

Results

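The comparison concerns the quiescent and the non-quiescent cells of a pooled yeast histone mutant library after 14, 24, 34 and 44 days of incubation. It rests on 8 of the 20 libraries of the series, 4 of each fraction, chosen by the fraction and day in their labels and paired by day. All strains derive from JDY86, a MATa strain with the alleles his3Δ200, leu2Δ0, K2Δ0 (spelled as in the methods), trp1Δ63, ura3Δ0, met15Δ0 and can1::MFA1pr-HIS3. In every strain, the wild type included, the hht1-hhf1 gene pair is replaced by NatMX4, and the hht2-hhf2 locus holds a synthetic H3 and H4 gene pair marked with URA3, which carries the designed substitution or deletion. The pool was grown in YPD (yeast extract, peptone and glucose) at 30°C with shaking, diluted into fresh YPD and left to age in 1 culture. Aliquots of that culture were layered on a Percoll density gradient, from which quiescent cells were collected. How the non-quiescent cells were taken up is not given in the sources used here. Each fraction of each day gave 1 library, in which the strain barcodes were amplified from genomic DNA and their reads counted. The 4 days are therefore serial samples of 1 ageing culture and not separate cultures, so that the p-values below measure only the scatter between these days.

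Yeast cells that exhaust their glucose leave the division cycle, and the resulting stationary culture parts into dense, stress-resistant quiescent cells and lighter non-quiescent cells that lose viability and the ability to resume growth. Silent chromatin in this yeast is built by the Sir proteins, and Sir3 binds the nucleosome face formed by the basic stretch of the H4 tail and the surface around H3K79. Binding of Sir3 is favoured when H4K16 is deacetylated. The tip of the H3 tail holds H3K4, which the Set1 complex methylates at active genes, and both tails carry lysines that are acetylated in transcribed chromatin.

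A strain was recognised by a pair of barcodes, named up and down, which lie beside its marked histone genes and were amplified and counted separately. The pairs of 4 strains on which the results turn are shown, since the reads of these sequences are the measurement itself. They belong to strains at the high end of the comparison (H4K16A and H4H18A), at the low end (H3S86D) and to the wild type, with each barcode in lower case as the deposited table gives it.
H4K16A up: ctaacgtctttgaacttggg
H4K16A down: aagaaggtttaattcgcccg
H4H18A up: ccggaaggtgttgtaactat
H4H18A down: cggtccaacaccaatttgaa
H3S86D up: tcattgctggcagtgtagct
H3S86D down: gatagcatcacatgacctgc
wild type up: ttgctttgaggacgtcccac
wild type down: ccaccttgtccttaggacac

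The 8 libraries held 126647 to 337544 counts, and the median kept strain had 206 to 486 counts. Of 422 named strains 347 were kept, made up of the wild type, 297 strains with 1 substitution, 3 with more than 1 and 46 with part of a tail deleted. Of the 75 that were not kept, 68 were at 0 in all 20 libraries. The share of counts on the up barcode was 87.6% in the quiescent and 67.8% in the non-quiescent library of day 24, against 51.6% to 64.2% in the other libraries. Its part in the day 24 values was not tested, but the mean of the up and down differences, each centred by itself, moved no named strain by more than its spread over days. The non-quiescent libraries were alike, with Spearman correlations of 0.985 to 0.991 over strains, and the quiescent libraries correlated at 0.933 to 0.993. Libraries of opposite fractions correlated at 0.743 to 0.935, and 8 of 8 libraries were nearest to one of their own fraction. The quiescent library of day 14 stood apart from the rest of its fraction, since its lowest correlation within the fraction (0.933) was no higher than its correlation with the non-quiescent library of day 44 (0.935).

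In what follows, the level of a strain is the log2 of its summed up and down counts in a library, less the median over kept strains, and the difference is the quiescent minus the non-quiescent level of the same day. A strain was called where the edgeR quasi-likelihood test, with day as a block, gave an adjusted p below 0.05. Between the fractions, 227 of 347 strains were called (65.4%), 113 of them higher in quiescent cells (32.6%) and 114 lower (32.9%). Of these, 219 lay on the same side on 4 of 4 days, and so did 77.2% of all kept strains. The calls come from the same days, so the count of 219 describes the called strains and does not test them. The split of the calls into higher and lower depends on what the levels are relative to. Scaled to library totals, which lowered every centred difference by 0.33 on the log2 scale and moved the median fitted difference from 0.05 to -0.21, 66 strains were called higher and 143 lower. Scaled to the wild type the split was 98 and 131, and scaled to the median strain 129 and 103. Fewer cells of a strain and less amplifiable DNA per cell cannot be told apart in such counts.

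The spread of the difference over strains, as an SD on the log2 scale, was 0.72 at day 14, 1.14 at day 24, 1.35 at day 34 and 1.30 at day 44. The median counting SD of a difference was 0.11 to 0.14 on the same scale, so that most of this spread lay beyond counting error. The 4 days ordered the strains alike, with Pearson correlations of 0.81 to 0.95 between days (over strains, which share the pool and the culture). The up and the down barcode gave mean differences that correlated at 0.97 and lay on the same side for 328 of 347 strains, including 113 of 113 called higher and 114 of 114 called lower. By the mean over days, 43 strains were more than 2-fold higher and 54 more than 2-fold lower in quiescent cells, and 9 and 25 more than 4-fold.

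The wild type stood at levels of 1.89, 2.12, 2.19 and 2.15 in the quiescent libraries and 1.80, 1.94, 1.99 and 1.89 in the non-quiescent libraries of days 14, 24, 34 and 44. The quiescent level was the higher one on each day, by 0.10 to 0.26. Its mean difference was 0.18 ± 0.07 (SD over 4 days), and it was not called (fitted difference 0.11 ± 0.10 SE, edgeR adjusted p = 0.383). In the order of mean differences 162 strains lay above it and 184 below.

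Strains with changes in the basic stretch of the H4 tail were among those with the largest positive differences. H4K16A removes the lysine whose deacetylation favours Sir3 binding, and its levels were -0.93, 0.47, 1.15 and 1.26 in quiescent against -1.86, -1.94, -2.12 and -1.53 in non-quiescent cells, in order of day. The fractions did not overlap, and its mean difference of 2.35 ± 1.01 (SD) corresponds to 5.09-fold (edgeR adjusted p = 0.00301). H4H18A, at the neighbouring histidine, had levels of 1.07, 2.21, 3.11 and 2.98 against 0.06, -0.10, -0.28 and 0.43, a mean difference of 2.31 ± 0.99 (4.97-fold, adjusted p = 0.00321). Again the lowest quiescent level lay above the highest non-quiescent level. Strains with the largest differences were picked for them, so a lack of overlap describes such strains and does not test them. H4H18Q (2.26 ± 0.88, adjusted p = 0.0025) and the acetyl-lysine mimic H4K16Q (2.16 ± 0.96, adjusted p = 0.00374) were close to the alanine strains. H4K16R, which keeps a positive charge, was also called higher, at 1.52 ± 0.60 (adjusted p = 0.00374). Glutamine exceeded arginine at this residue by 0.64 ± 0.37 and alanine exceeded arginine by 0.83 ± 0.41, each on 4 of 4 days.

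**Figure D1:**
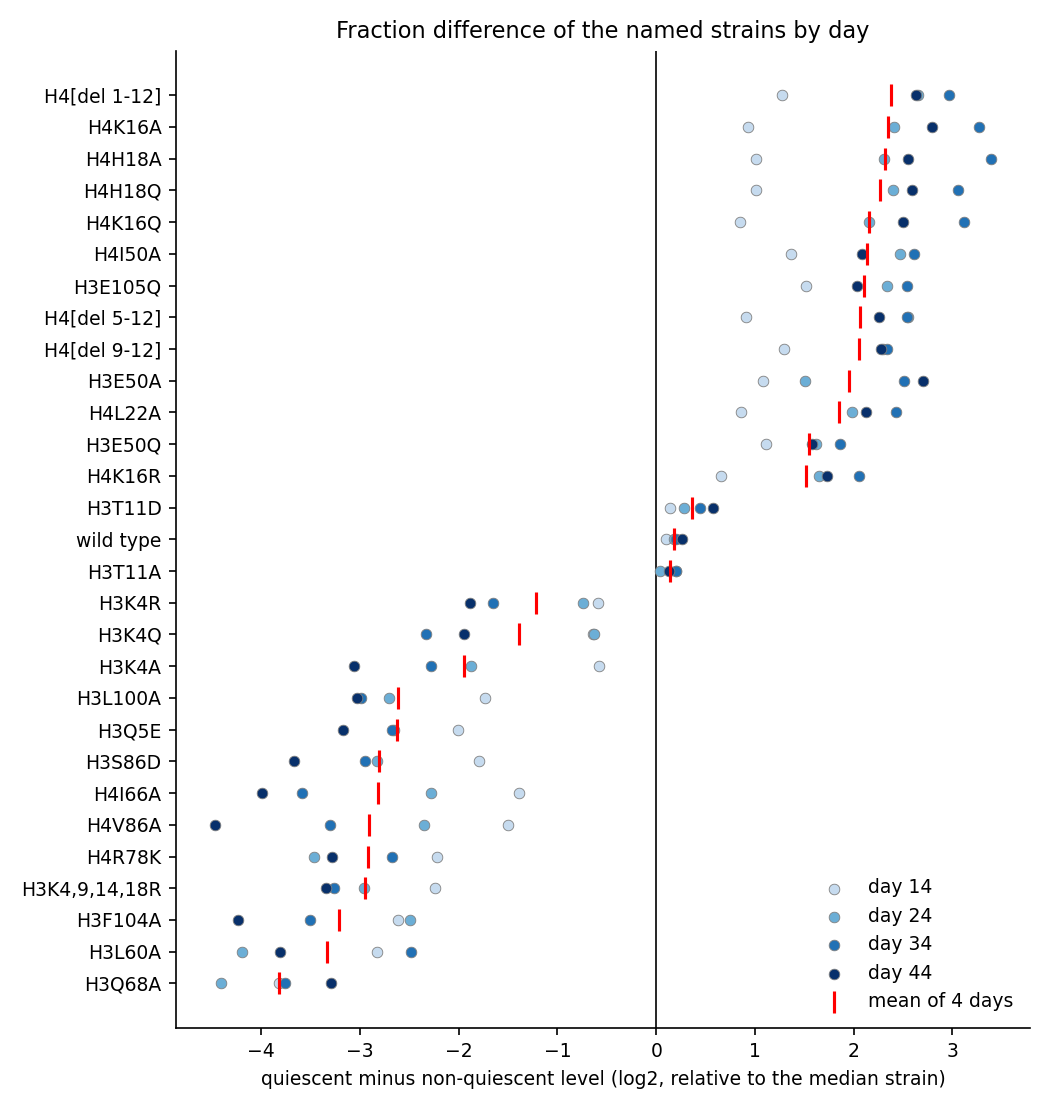
Difference between the quiescent and the non-quiescent level (log2, x axis) of strains with the largest called differences, the wild type and all strains at H4K16, H4H18, H4L22, H3E50, H3T11 and H3K4 (y axis), with 1 point per day, darker for later days, and a red bar at the mean of 4 days. Day 14 has the smallest difference in most strains, and H4K16A ranges from 0.93 at day 14 to 3.27 at day 34.

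The other residues of the H4 basic patch (residues 16 to 20) did not move together. Of its 12 strains 6 were called higher and 2 lower, with a median difference of 0.61, against 32.6% higher, 32.9% lower and a median of 0.12 over all kept strains. The 6 were the strains at H4K16 and H4H18 and H4R19A (1.15 ± 0.36). Both strains at H4R17 and the glutamine and arginine strains at H4K20 were not called, and H4R19K (-0.28 ± 0.10) and H4K20A (-0.28 ± 0.10) were called lower. Outside the patch, H4L22A, which changes a leucine of the same tail, stood at 1.85 ± 0.69 (adjusted p = 0.00294). The study named H4K16, H4H18, H4L22, H4N25 and H3T80 as contacts of Sir3, and 10 of 10 strains at these residues were called higher, with a median of 1.88. It chose that list on these samples, so the count is not independent evidence. Within it H4N25D stood at 1.92 ± 0.60 and H4N25A at 0.47 ± 0.14, the lowest of the list, whereas H3T80D (1.85 ± 0.72) and H3T80A (1.44 ± 0.44) differed by 0.41 ± 0.29.

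High strains were also found away from the Sir3 face. H4I50A changes a hydrophobic residue of the second H4 helix, and its levels were 0.67, 1.86, 1.98 and 1.83 in quiescent against -0.69, -0.61, -0.63 and -0.25 in non-quiescent cells, a mean difference of 2.13 ± 0.56 (adjusted p = 0.00117). H3E105Q lies at a SIN position, that is one where mutants can grow without some activities of the SWI/SNF remodelling complex. Its levels were 0.47, 1.19, 1.58 and 1.48 against -1.04, -1.15, -0.95 and -0.56, which gives 2.11 ± 0.44 (adjusted p = 0.00117). Neither strain had overlapping fractions. H3E50A (1.95 ± 0.78, adjusted p = 0.00439) rests on a mean of only 37.1 counts, but H3E50Q, with 662 counts, stood at 1.54 ± 0.31 (adjusted p = 0.00117). In the first helix of H4, 7 of 12 strains were called higher and 1 lower, with a median of 0.85, against 32.6% and 32.9% of all strains. Highest was H4R36K at 1.77 ± 0.48, with H4R36A at 1.69 ± 0.78, and the exception was the hydrophobic change H4L37A at -2.18 ± 0.68.

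**Figure D2:**
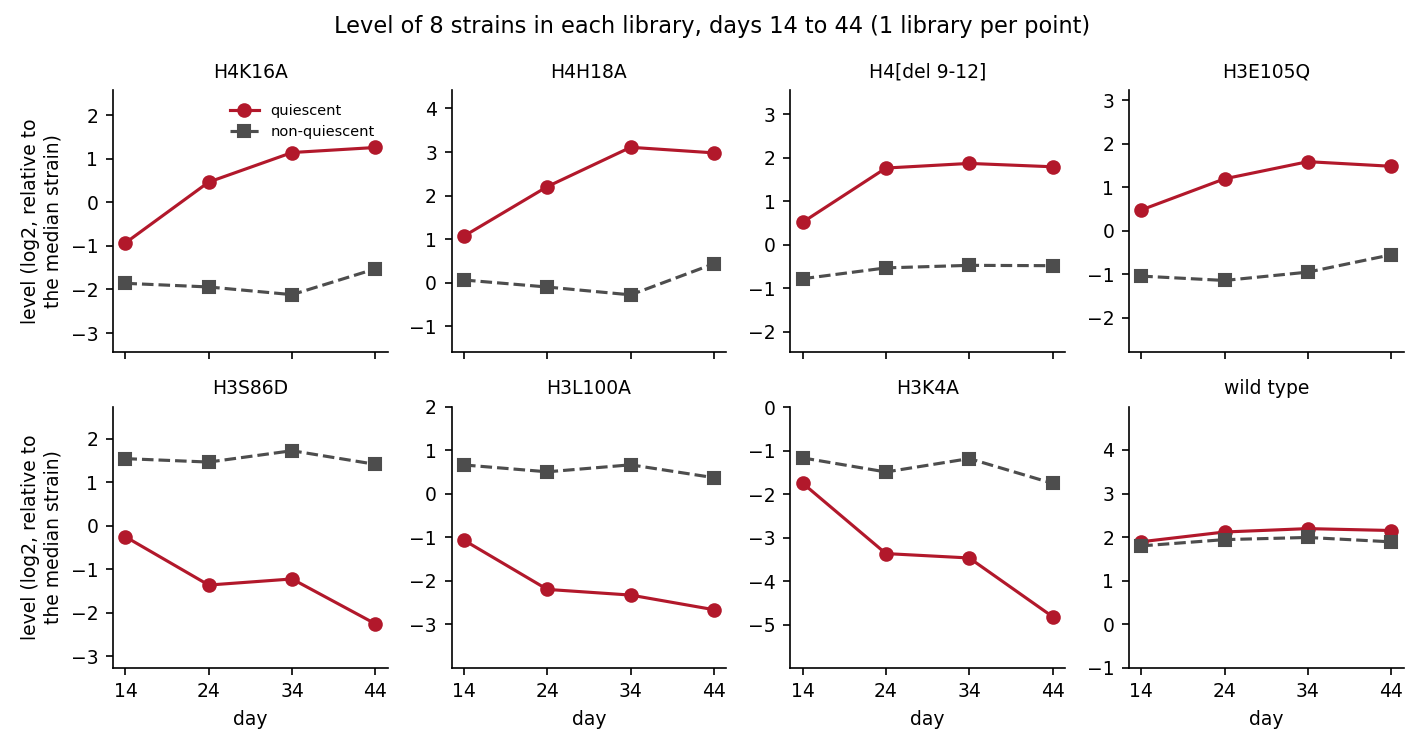
Level (log2 relative to the median strain, y axis) against day (x axis) of 8 strains, with quiescent libraries as red circles and non-quiescent libraries as grey squares, 1 library per point and the same span of 6 log2 units in each panel. The quiescent levels move with day, as for H3S86D from -0.26 to -2.26, whereas the non-quiescent levels stay nearly flat.

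The movement between days 14 and 44 lay in the quiescent libraries. The change of a strain's level from day 14 to day 44 had an SD over strains of 0.85 in quiescent and 0.26 in non-quiescent libraries, and it exceeded 2-fold for 72 and 2 strains. Of the 113 strains called higher, 108 rose in quiescent level between these days, with a median change of 0.50, against 0.11 in non-quiescent cells. Of the 114 called lower, 4 rose, and the median changes were -0.74 and -0.10. The calls and these changes come from the same libraries, so the latter describe the called strains and do not test them. Levels of days 7 and 44 had a Spearman correlation over strains of 0.981 in non-quiescent and 0.765 in quiescent libraries.

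Many of the strains with the largest negative differences changed residues outside the tails, and tail strains are given further on. H3S86D, which places a negative charge at the start of the second H3 helix, had levels of -0.26, -1.36, -1.22 and -2.26 in quiescent against 1.54, 1.46, 1.72 and 1.41 in non-quiescent cells. Its mean difference was -2.81 ± 0.77, or 7.0-fold lower, on a mean of 554 counts (adjusted p = 0.00117). H3L100A, a change of a hydrophobic residue of the same helix, had levels of -1.07, -2.19, -2.32 and -2.66 against 0.66, 0.51, 0.67 and 0.37, which gives -2.61 ± 0.61 (adjusted p = 0.00117). Both strains lay above the median strain in 4 of 4 non-quiescent libraries and below it in 4 of 4 quiescent libraries. H4I66A (-2.81 ± 1.20), H4R78K (-2.91 ± 0.57) and H4V86A (-2.91 ± 1.27) stood as low on means of 150, 73.9 and 39.8 counts, with adjusted p of 0.00301, 0.00117 and 0.00318.

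The lowest strains of all were thinly counted. H3Q68A had 2, 0, 2 and 2 counts in quiescent and 30, 15, 17 and 28 in non-quiescent cells, a difference of -3.82 ± 0.45 with 0.5 in place of the 0 (adjusted p = 0.0013). H3L60A had 2, 0, 6 and 1 against 15, 13, 21 and 20 counts (-3.33 ± 0.81, adjusted p = 0.00266). H3F104A had 22, 13, 20 and 5 against 143, 104, 142 and 134 counts (-3.21 ± 0.82, adjusted p = 0.00117). In each of the 3 the highest quiescent count lay below the lowest non-quiescent count. On the down barcode alone H3Q68A stood at -2.83 and H3L60A at -2.16. With H4D85A (-2.45 ± 0.55, 14.4 counts), these 3 make up the 4 residues that the study named as buried. Of these strains 4 of 4 were called lower, against 32.9% of all strains. Their selection by the study was itself made from these samples, so the count is not independent evidence. The quadruple strain H3K4,9,14,18R, in which 4 tail lysines are arginine, had 7, 3, 4 and 2 against 35, 33, 24 and 29 counts (-2.95 ± 0.50, adjusted p = 0.0013). Its level was low in both fractions, but lower in quiescent cells on each day.

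Hydrophobic residues of the fold changed to alanine divided into high and low strains. Of 29 strains 14 were called lower and 7 higher, against 32.9% and 32.6% of all strains, with a median of -0.43 and a range from -3.33 (H3L60A) to 2.13 (H4I50A). Low strains included H4V81A, with -2.15, -2.19, -2.42 and -2.48 on the 4 days, and H3I74A at -2.06 ± 0.86. High strains included H3V96A at 1.34 ± 0.31. Among the segments of the fold, the second loop of H4, which borders the H3K79 surface, was the most uniform. None of its 9 strains was called higher and 7 were called lower, with a median of -1.22, from H4R78K to H4K77R at -0.16 ± 0.04. The third helix of H4 had 6 strains lower and 2 higher of 10 (median -0.56, from H4V86A to H4Y88A at 0.51 ± 0.18). The C-terminus of H4 had 8 lower and 2 higher of 13 (median -0.73), with H4G99A at -1.17 ± 0.50 and H4F100A at 1.03 ± 0.35 as its ends.

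**Figure D3:**
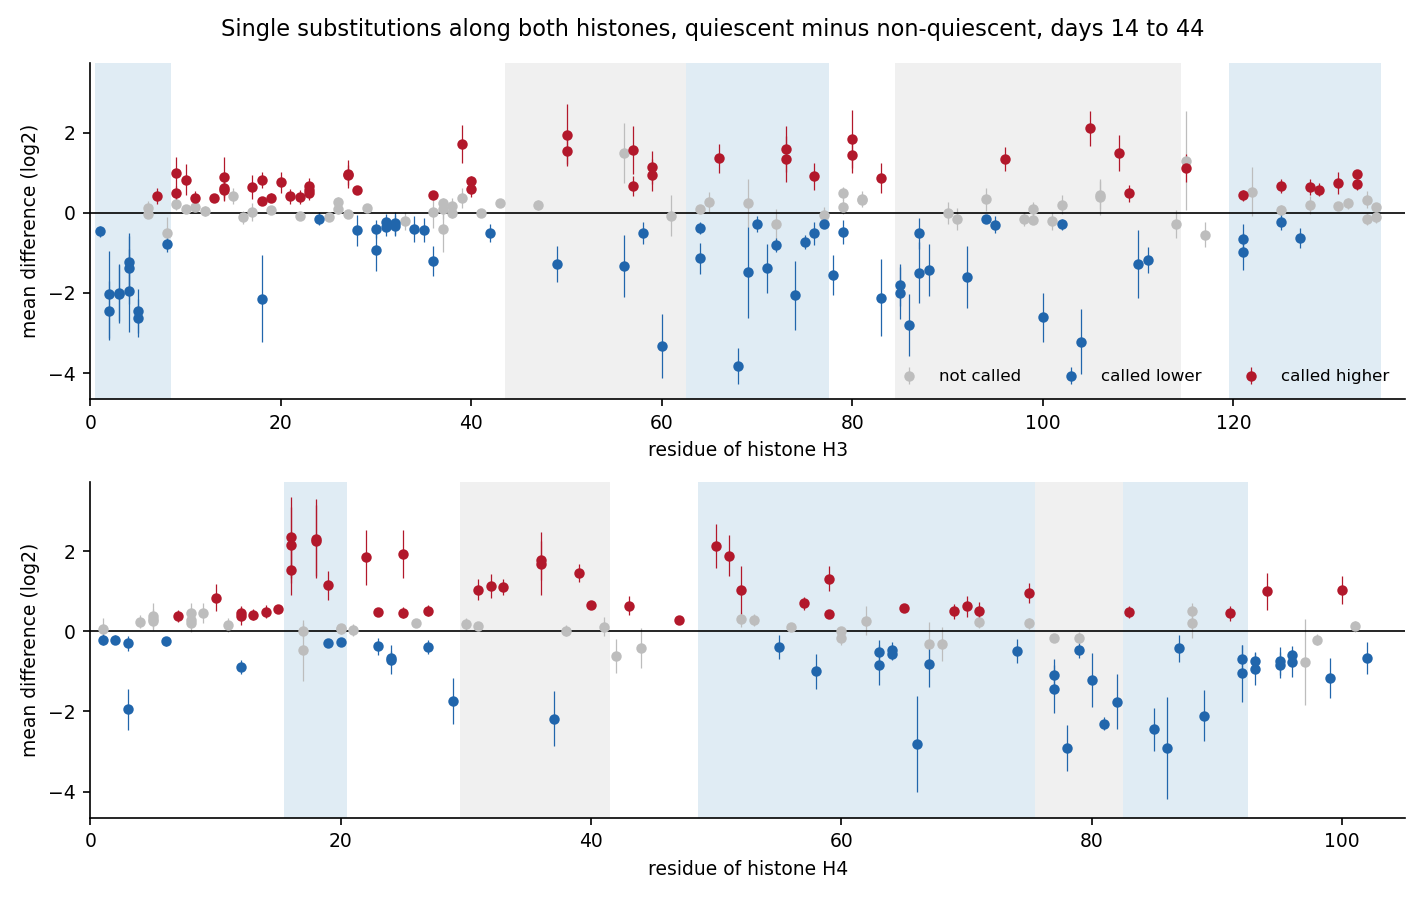
Mean difference over 4 days (log2, y axis) of each kept single substitution along histone H3 (top) and H4 (bottom), by residue (x axis), with bars of ±1 SD over days and called strains in red (higher) or blue (lower). Shaded bands, from left to right, are the tip of the tail, the alpha-N region, the first helix, the second helix and the third helix with the residues after it in H3, and the basic patch, the first helix, the second helix, the second loop and the third helix in H4. Residues 1 to 5 of H3 hold only low strains, and H4K16 and H4H18 only high ones.

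In H3 the first helix had 11 strains lower and 4 higher of 20 (median -0.29), from H3Q68A to H3E73A at 1.60 ± 0.58. The second helix had 14 lower and 4 higher of 29 (median -0.21), from H3F104A to H3E105Q. The alpha-N region had 6 higher and 4 lower of 13 (median 0.66), the first loop 3 and 3 of 10 (0.32), the second loop 1 and 0 of 3 (1.11) and the stretch from the third helix to the end of the protein 7 and 4 of 20 (0.21). With 1 value per residue the medians were 0.09 for the alpha-N region, 0.05 for the first loop, 0.33 for the second loop and 0.23 for the last stretch. In H4 the second helix had 11 higher and 9 lower of 30 (0.21) and the first loop 2 and 0 of 4 (-0.06). These counts can be set against 93 higher and 104 lower of all 297 substitutions, with a median of 0.08. On the LRS surface around H3K79, which is needed for silencing, 6 of 25 strains were called higher and 12 lower (median -0.17). None of the H4 residues of the surface held a strain called higher, whereas its H3 side was mixed. The high strains lay at H3E73, H3Q76, H3T80 and H3R83, but H3Q76A (-0.51) and H3R83A (-2.12) were called lower. At H3K79 itself, the residue that Dot1 methylates, H3K79Q was called lower (-0.48 ± 0.30) and H3K79A (0.49 ± 0.16) and H3K79R (0.15 ± 0.19) were not called.

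The tip of the H3 tail, residues 1 to 8, was low as a group. Of its 15 strains 11 were called lower and 1 higher, with a median difference of -1.39, whereas 32.9% of all strains were called lower and 32.6% higher. The strains at H3R2, H3T3, H3K4 and H3Q5 all lay at -1.22 or below. H3Q5E had the largest negative difference, with levels of -3.28, -4.10, -3.84 and -4.52 in quiescent against -1.27, -1.45, -1.16 and -1.35 in non-quiescent cells (-2.63 ± 0.48, adjusted p = 0.00117). H3R2K, on 602 counts, stood at -2.44 ± 0.72, and H3T3A and H3T3D at -2.02 ± 0.73 and -2.00 ± 0.69. At H3K4, the Set1 target, H3K4A had quiescent levels of -1.75, -3.36, -3.47 and -4.81 and non-quiescent levels of -1.17, -1.49, -1.18 and -1.75. The difference was wider on each later day, a change with day that the edgeR interaction test did not call (adjusted p = 0.0602). Its mean over days was -1.95 ± 1.04, and the strain was called lower (adjusted p = 0.00676). H3K4R (-1.22 ± 0.65, adjusted p = 0.00634) and H3K4Q (-1.39 ± 0.88 on 30.8 counts, adjusted p = 0.0171) were also called lower, the latter not on the down barcode alone, without day 34 or without day 44. The following residues of the tip were less uniform. H3T6A (-0.03 ± 0.09) and H3T6D (0.12 ± 0.18) were not called, H3A7S was called higher (0.41 ± 0.20), and at the last residue H3R8A (-0.77 ± 0.20) was called lower and H3R8K, at -0.51, was not called. Further along the tail H3T11A stood at 0.14 ± 0.07 (adjusted p = 0.432) and H3T11D at 0.36 ± 0.19 (adjusted p = 0.0341), a call that was lost under most alternatives. Over the whole H3 tail 26 strains were higher and 24 lower of 77 (median 0.08), with H3H39Q at 1.72 ± 0.48 as the highest, and over the H4 tail 18 and 13 of 47 (0.27), with H4R3K at -1.95 ± 0.50 as the lowest.

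The late differences were then compared with those of days 1, 2 and 3, the first days of the incubation, through the interaction of fraction with period over 14 libraries. In that comparison 196 of 347 strains were called (56.5%), 92 with a more positive (26.5%) and 104 with a more negative difference at the late days (30.0%). The fraction test on days 1 to 3 alone called 20 strains (5.76%), 8 higher and 12 lower, with 119 at an unadjusted p below 0.05. Differences of late and early days correlated at -0.32 to 0.49 over strains, and those among the 3 early days at 0.19 to 0.86. Without day 3 the count of the period comparison was 129 (65 positive, 64 negative) and without day 2 it was 131 (58 and 73). The labels of the early libraries were used as given. The day 5 libraries, which enter no test here, were nearer to the day 3 library of the opposite fraction (Spearman 0.973 and 0.979) than to that of their own (0.878 and 0.856), and the differences of day 5 correlated at -0.69 and -0.80 with those of days 2 and 3. Which of these labels hold could not be told from the libraries, so the comparison was repeated with day 1 as the only early day and with the fractions of days 2 and 3 exchanged, both chosen after seeing the data. With day 1 alone edgeR called 0 strains, with 122 at an unadjusted p below 0.05 and 28 called by DESeq2. With the exchange it called 61 strains (41 positive, 20 negative). The early values below therefore rest on the labels of days 2 and 3.

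With the labels as given, the tip of the H3 tail lay on opposite sides of 0 in the 2 periods. Its median difference was 0.42, 0.67 and 1.14 on days 1, 2 and 3 and -0.58, -0.97, -2.28 and -1.95 on days 14, 24, 34 and 44. It lay near 0 in between, at -0.06 on day 5 and 0.02 on day 7. Of the 15 strains 11 were called more negative and 1 more positive at the late days, against 30.0% and 26.5% of all strains. With the fractions of days 2 and 3 exchanged, the medians of these days would be -0.67 and -1.14, on the side of the late days, and 3 strains were called more negative. With day 1 alone 0 of the 15 were called, with a median fitted change of -1.83. H3R2A stood at 1.08, 1.82 and 2.15 early and at -0.55, -1.96, -3.04 and -2.58 late, on a late mean of 36.8 counts, a fitted change of -3.76 ± 0.65 (SE, adjusted p = 0.00327). H3K4A stood at 0.51, 2.15 and 1.75 early and below 0 on 4 of 4 late days (-3.46 ± 0.66, adjusted p = 0.00431). The deletion of the same stretch, H3[del 1-4], stood at 1.04, 1.96 and 1.93 early and at -0.72, -1.50, -2.79 and -2.79 late, with a fitted change of -3.72 ± 0.56 (adjusted p = 0.00286). In these strains the early and the late values do not overlap with the labels as given. H3R2A and H3[del 1-4] were picked for the size of this change, so the lack of overlap describes them and does not test them. With the exchange the fitted changes were -0.88 for H3R2A, -0.61 for H3K4A and -0.80 for H3[del 1-4], and none of the 3 was called. In the fit on days 1 to 3 alone, H3[del 1-4] was called (adjusted p = 0.0379), and H3R2A (adjusted p = 0.0567) and H3K4A (adjusted p = 0.0777) were not. H3Q68A had the most negative fitted change (-3.96 ± 0.91, adjusted p = 0.00828), with the low counts given above.

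**Figure D4:**
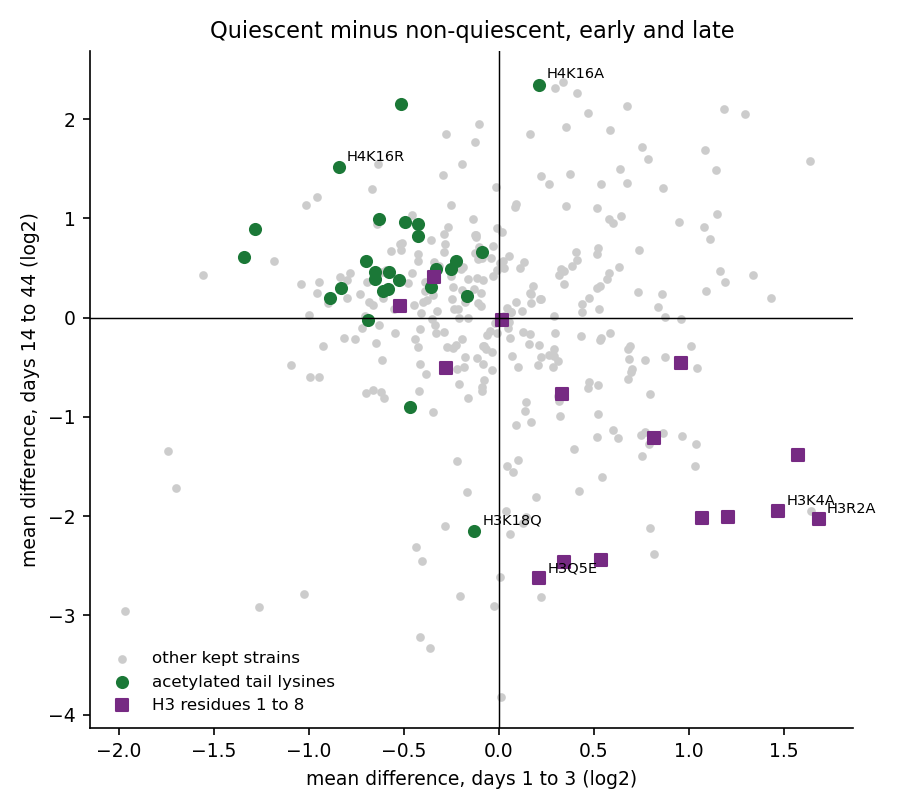
Mean difference of days 14 to 44 (log2, y axis) against that of days 1 to 3 (x axis) for each kept strain, with the fraction labels as given, H3 residues 1 to 8 as purple squares and acetylated tail lysines as green circles. Most purple squares lie at the lower right, such as H3R2A at 1.68 early and -2.03 late, and most green circles at the upper left, such as H4K16R at -0.84 early and 1.52 late.

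Substitutions of the acetylated tail lysines were mostly higher at the late days. At H3K9, H3K14, H3K18, H3K23, H3K27, H4K5, H4K8, H4K12 and H4K16, 17 of 27 strains were called higher and 2 lower at the late days, with a median of 0.49, against 32.6% and 32.9% of all strains. Their median on days 1 to 3 was -0.53, and 23 of 27 were called more positive at the late days and 1 more negative. With the labels as given, the medians were -0.12, -0.66 and -0.78 on days 1, 2 and 3. They were 0.79 on day 5, where 24 of 27 lay above 0, and -0.04 on day 7. The exchange described above would put days 2 and 3 at 0.66 and 0.78. A step upward between days 3 and 5 therefore depends on the labels in doubt, and its place could not be told. With the fractions of days 2 and 3 exchanged 2 of 27 were called more positive, and with day 1 alone 0 of 27 were called. The largest positive fitted changes of all strains were those of H4K16Q (2.50 ± 0.49 SE, adjusted p = 0.00478), H4K16R (2.18 ± 0.38, adjusted p = 0.00327) and the deletion H4[del 9-16] (2.00 ± 0.36, adjusted p = 0.00358). H4K16Q stood at 0.18, -0.86 and -0.87 on days 1 to 3 and at 0.85, 2.16, 3.11 and 2.50 late. With the exchange its fitted change was 1.65 (adjusted p = 0.0455), and those of H4K16R and H4[del 9-16] were no longer called (adjusted p = 0.205 and 0.0976). The 2 strains called lower were H3K18Q, with 138, 60, 65 and 16 counts in quiescent against 335, 216, 236 and 259 in non-quiescent cells (-2.15 ± 1.09), and H4K12R (-0.90 ± 0.17). At the methylated lysines of H3 (H3K4, H3K36 and H3K79) 5 of 9 strains were lower and 1 higher (median -0.48). Among modifiable core lysines 7 were higher and 9 lower of 24 (0.07), and among phosphorylatable tail residues 4 and 8 of 18 (-0.05). These are shares of 29.2% higher and 37.5% lower for the former, near those of all strains, and 22.2% and 44.4% for the latter. The 2 kept strains at SIN positions were both called higher (H3E105Q and H4V43A at 0.64 ± 0.25), alanines changed to serine had 4 higher and 8 lower of 21 (-0.15), and arginines that enter the minor groove 1 and 3 of 5 (-0.79).

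Different substitutions of 1 residue were compared at the 85 residues with several kept substitutions. The gap between the highest and the lowest had a median of 0.41, where the mean difference had an SD of 1.08 over all kept strains. Whether strains of unlike residues lie further apart was not tested. At 14 residues all strains were called higher and at 17 all lower, and 11 held strains called in opposite directions. Of all strains 32.6% were called higher and 32.9% lower, but these are shares of single strains. A residue counted as all higher or all lower needs every one of its strains called alike, so these shares are no yardstick for such residues. The gap exceeded 2 at 3 residues. At H3R83, an arginine that enters the minor groove, alanine was low (levels of -0.92, -2.52, -2.97 and -2.90 in quiescent against -0.18, -0.27, -0.13 and -0.23) and lysine was high (0.16, 0.62, 1.00 and 0.72 against -0.28, -0.17, -0.35 and -0.15). The alanine strain was thus 2.98 ± 1.29 below the lysine strain. At H3K18, H3K18Q lay 2.97 ± 1.18 below H3K18R (0.83 ± 0.19) and 2.45 ± 1.05 below H3K18A (0.30 ± 0.08). At H3K56 the alanine strain had a mean of only 2.75 counts and was not called. Smaller splits were seen at H3K36, where alanine (-1.19 ± 0.38) lay 1.65 ± 0.37 below arginine (0.46 ± 0.06), and at H4K12, where arginine lay 1.35 ± 0.01 below alanine and 1.27 ± 0.18 below glutamine, on 4 of 4 days. At H4R19 alanine exceeded lysine by 1.43 ± 0.43, and at H4R3 by 1.65 ± 0.34. These pairs were picked for their gap, which is given as a description. Over 21 lysines glutamine against arginine had a median of -0.14 and was positive at 8, over 18 serines and threonines aspartate against alanine had 0.15 and was positive at 12, and over 19 arginines alanine against lysine had -0.08 and was positive at 9.

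Deletions of the tails depended on which residues were removed. Of 15 H4 deletions 8 were called higher and 2 lower (median 0.78), against 32.6% and 32.9% of all strains. H4[del 1-12] had quiescent levels of -0.02, 1.26, 1.77 and 1.51 and non-quiescent levels of -1.29, -1.40, -1.19 and -1.12, the largest positive mean difference of the library (2.38 ± 0.75, 5.2-fold, adjusted p = 0.00135). H4[del 5-12] (2.06 ± 0.78), H4[del 9-12] (2.05 ± 0.50) and H4[del 9-16] (1.54 ± 0.66) were also high. By contrast H4[del 1-4], which removes only the first part of H4[del 1-12], had 85, 16, 29 and 10 counts in quiescent against 171, 117, 124 and 156 in non-quiescent cells (-2.38 ± 1.07, adjusted p = 0.00415). Removal of the first residues was thus low alone and high together with residues 5 to 12. H4[del 17-24], which takes away H4H18 and H4L22, was called lower at -0.81 ± 0.44, whereas the 3 single substitutions at these residues were called higher. H4[del 15-18] (-0.16 ± 0.26) and H4[del 17-20] (0.50 ± 0.54) were not called.

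Of 31 H3 deletions 11 were called higher and 7 lower (median 0.35), and the share called higher lay near the 32.6% of all strains (32.9% were lower). The sign of the median was not stable among these deletions. It was 0.27, 0.11, -0.14 and 0.53 on days 14, 24, 34 and 44, and -0.17 with 1 value per first residue removed. The low ones began near the tip or covered the middle of the tail, with H3[del 1-4] at -1.95 ± 1.02, H3[del 5-8] at -1.15 ± 0.46 and H3[del 13-24] at -1.34 ± 0.70 on 9.25 counts, although H3[del 9-16] was called higher (0.43 ± 0.14). H3[del 4-15] was the lowest, at -2.79 ± 0.90 on 7.63 counts. Deletions from residue 17 on were higher where they were called, such as H3[del 17-24] (1.22 ± 0.63), H3[del 25-28] (0.90 ± 0.22) and H3[del 25-36] (0.71 ± 0.06). Adding residues moved a strain across 0, since H3[del 13-24] was low and H3[del 13-28] was high (1.14 ± 0.22 on 34.1 counts). The numerically highest, H3[del 13-32] (1.29 ± 1.33), had 3.5 counts and was not called.

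**Figure D5:**
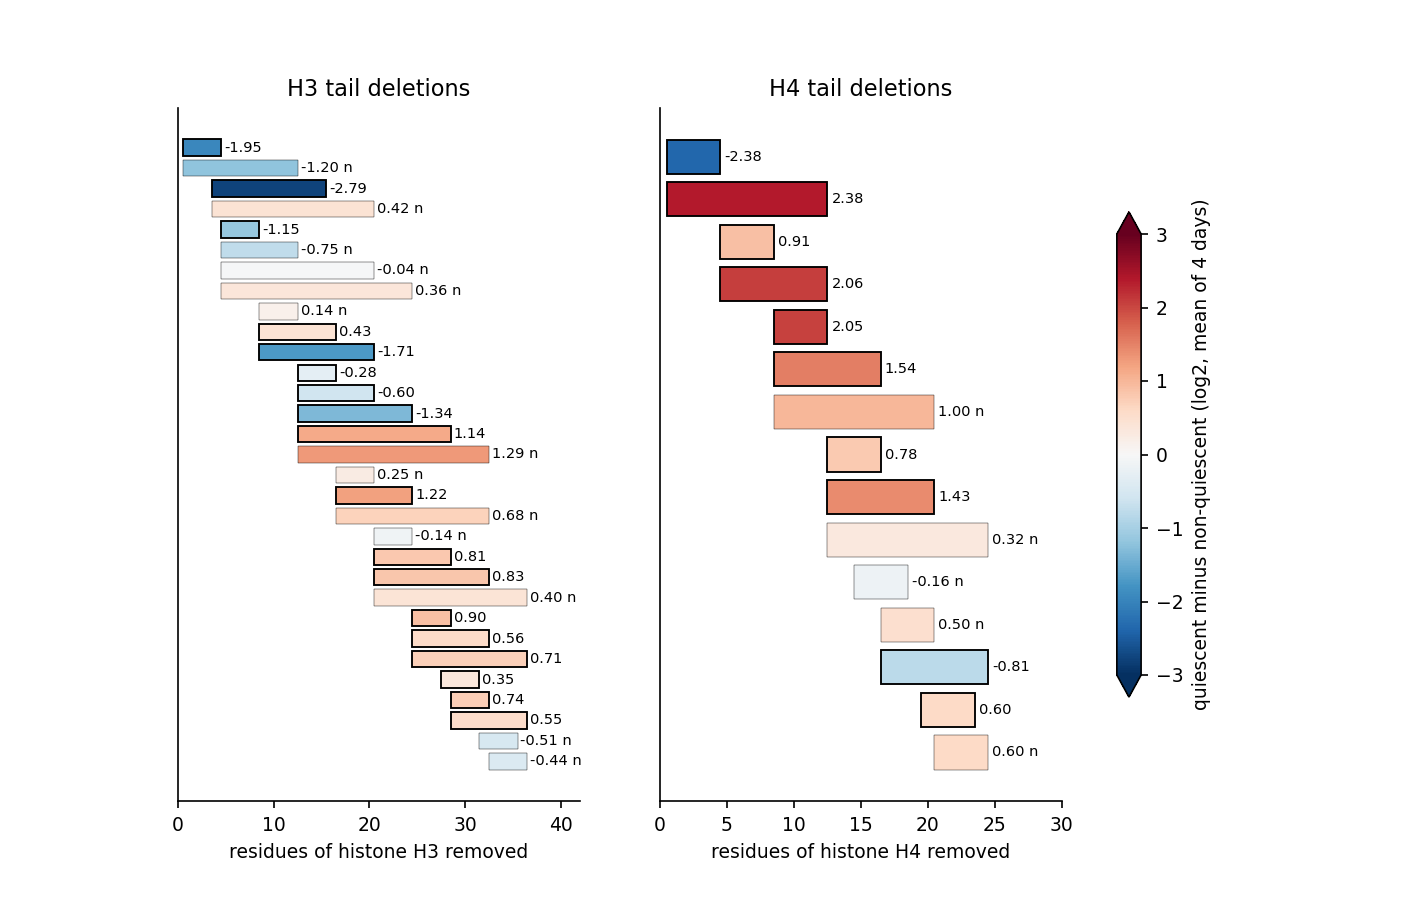
Kept deletions of the H3 (left) and H4 (right) tail, drawn as bars over the residues removed (x axis) and coloured by the mean difference over 4 days (log2), whose value stands at the end of each bar, with "n" and a thin outline for strains that were not called. In H4 the deletion of residues 1 to 4 (-2.38) stands beside that of residues 1 to 12 (2.38).

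Lastly, the change of the difference with day was tested within days 14 to 44. At an adjusted p below 0.05, 8 of 347 strains were called (2.31%), all of which became more negative in quiescent relative to non-quiescent cells, and 69 had an unadjusted p below 0.05. H4I66A changed by -0.96 ± 0.14 per 10 days (SE), with differences of -1.39, -2.28, -3.59 and -4.00. H3R69K changed by -0.82 ± 0.14 (-0.47, -0.56, -2.29 and -2.64) and H3[del 1-4] by -0.79 ± 0.13 per 10 days, each with an adjusted p of 0.049. These counts were not stable, ranging from 0 to 48 between scalings, filters and barcodes and from 2 to 58 without 1 day. Nor was their direction, since 16 of the 48 strains called on the up barcode alone, 22 of the 58 without day 24 and 19 of the 34 without day 44 became more positive.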

How the data were processed

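Genomic DNA of 8 fractions was amplified with a primer pair for each barcode and sequenced as single-end Illumina reads. The deposited values are raw counts per up and down barcode, which the authors obtained with get_seqs_from_fastq and match_barcodes_to_strain. They carry no molecular identifiers, so counting errors cover sampling of reads only. A further deposited table of the authors' log2 ratios for the quiescent fraction was not used. Each library listed 488 barcode pairs, of which 423 had a strain name (422 strains, the wild type being listed a second time); the other 65 held 12.7% to 16.6% of the counts and were left out. The up and the down count of a strain were added, a strain was kept if this sum averaged 10 or more over 20 libraries, and 0 was set to 0.5 before taking log2.

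Groups came from the library titles. The summed counts, scaled by TMM, were put to the quasi-likelihood F-test of edgeR (version 4.0.16, under R 4.3.3) at a Benjamini-Hochberg adjusted p below 0.05, with 3 residual degrees of freedom for the fraction term with day as a block, 2 for its change with day, 5 for the period comparison and 2 for days 1 to 3. Day pairs the libraries, since the titles give both fractions the same days. Whether both fractions of a day came from 1 aliquot is not given in the sources used here. The script was tested on simulated counts. Alternatives were other scalings, DESeq2 1.42.0 (Wald test), limma 3.58.1, other filters, each barcode alone and leaving out each day. The comparison, the lists and the rule for named strains (the 10 largest called differences in each direction with the same sign on 4 of 4 days, the wild type, strains at 6 residues, the 3 largest called changes with period and with day in each direction, and the ends of each list) were chosen with earlier results of these data known. Other strains are named as members of a list or residue after their values were seen. Tables and plots were made with pandas 2.3.3, matplotlib 3.10.9, scipy 1.17.1 and numpy 2.4.6 under Python 3.11.15.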

Additional observations from a re-analysis of the deposited data

Results flagged for a closer look

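Among the named strains, 99 groups of 4 values (the difference, the quiescent level and the non-quiescent level over 4 days) were examined for a value far from the other 3, and 4 had one. Chance would give about 1 in 20 such groups if they were independent. Each difference is computed from both levels, and all strains share the same libraries, so 4 of 99 cannot be set against that rate. In each of the 4 the far value was that of day 14. They were the quiescent levels of H4I50A (0.67) and H4[del 9-12] (0.52), and the differences of H4[del 9-12] (1.30) and H4[del 9-16] (0.56).

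The difference between the fractions itself differed between days 14 to 44 and days 1 to 3 by the edgeR interaction test for 196 strains, a count that was 61 with the fractions of days 2 and 3 exchanged and 0 with day 1 as the only early day (122 at an unadjusted p below 0.05, and 28 called by DESeq2). The largest changes were those of H4K16Q (2.50), H4K16R (2.18) and H4[del 9-16] (2.00) upward and of H3Q68A (-3.96), H3R2A (-3.76) and H3[del 1-4] (-3.72) downward, as late minus early fitted differences on the log2 scale.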

How the results depend on the processing

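The count of strains called between the fractions stayed within 1.5 times the main count of 227 under the alternatives run (from 180 on the down barcode alone to 236 with no replicate block, and 164 to 269 without 1 day). The day pairs the libraries, and the fit with no replicate block changed no call of a named strain other than that of H3T11D (0.30, not called). The change with day, at 8 strains, was 27 with library totals, 0 with wild-type factors, 15 with DESeq2, 0 at a mean of at least 50 counts, 48 on the up and 24 on the down barcode alone, and 2 to 58 without 1 day. The period comparison gave 129 to 227 without 1 day, 0 with day 1 as the only early day and 61 with the fractions of days 2 and 3 exchanged (both chosen after seeing the data). With library totals or wild-type factors its split was 52 positive and 127 negative or 63 and 133, and with median-strain factors 119 and 91, and for these splits the cause was not tested beyond the shift of the median.

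Of 511 refitted differences of 33 named strains, 492 kept their direction and their side of the threshold, 14 no longer passed (those of H3T11D and H3K4Q) and 5 changed sign. The latter were the wild type with library totals (-0.15) and H3T11A with library totals (-0.19), wild-type factors (-0.039), the down barcode alone (-0.0088) and at least 10 counts in each library (-0.0081, chosen after seeing the data). Their centred differences changed sign likewise, that of the wild type on library totals (-0.15) and that of H3T11A on library totals (-0.19) and on the wild type (-0.040). None of these was called. Of 230 list medians under alternatives 200 moved by less than the spread over days, 26 moved by more and 4 changed sign: the first loop of H4 without 1 day (-0.11 to 0.062, the latter without day 44) and at a mean of at least 50 counts (0.29), modifiable core lysines at a mean of at least 50 counts (-0.048), and phosphorylatable tail residues with 1 value per residue (0.045). For the lists of tail deletions, 1 value per residue was not among the alternatives counted here. Depth limits some of the lowest strains, such as H3Q68A and H3L60A. A mean under 50 counts was not particular to low strains. It was found for 12 of the 114 called lower, 4 of the 113 called higher and 16 of the 120 not called.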
